A study of Mus musculus with 8 samples.

Results

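The open chromatin of conventional type 1 dendritic cells (cDC1) from the spleen of wild-type mice was described from 4 ATAC-seq libraries, WT libraries 1 to 4. They are 4 of the 8 libraries of the series, chosen by their titles. The other 4 came from CD11c-Cre; OPA1 flox mice, in which Cre is driven from the CD11c (Itgax) promoter, and no comparison between genotypes was made here. Both groups were sort-purified splenic cDC1. The labels give neither the strain, sex or age of the mice, nor the sort markers, nor whether the WT mice carried a Cre or a floxed allele. They also do not say whether each library came from a separate mouse, so the spread between libraries may be partly technical.

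cDC1 are the dendritic cells that take up dead cells and pass their antigens to CD8 T cells on MHC class I molecules, known as cross-presentation. Their development depends on the transcription factors IRF8 and BATF3, and they carry the chemokine receptor XCR1 and the dead-cell receptor CLEC9A (DNGR-1) on their surface. In ATAC-seq a transposase inserts sequencing adapters where DNA is not covered by nucleosomes, so a region with many reads marks an accessible promoter or a distal element such as an enhancer. An accessible promoter does not measure transcription.

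The table held 59906 regions, shared by all 8 libraries of the series and therefore not chosen on the WT libraries alone. Total counts were 6426149, 6777651, 4660826 and 5649829 in WT libraries 1 to 4, and the median count per region was 32 to 45. Levels are CPM, counts scaled to the library's total in regions, averaged over the 4 libraries, with the SD between libraries (n = 4). Log2 CPM correlated across regions with a Pearson's r of 0.941 to 0.956 between pairs of libraries, where regions are not independent replicates. The 599 strongest regions (1% of all) of any pair of libraries shared 482 to 540 members. A region was a promoter when it lay within 1 kb of a RefSeq transcription start of a protein-coding gene. For the 4392 of 21883 genes without a listed start, either end of the gene model was used, which can be a 3′ end. Other regions were inside a gene model or between genes.

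The promoters on which the description turns are shown first, because they differed in both level and base composition, which did not follow each other among these 8. The sequences are from RefSeq (GRCm38.p6) and run 5′ to 3′ on the strand of the gene, from 250 bases before the start to 30 bases from it. Capitals mark, on either strand, the GC box GGGCGG, the CCAAT box CCAAT, the TATA box TATAAA, the ETS motif CCGGAAGT, the CRE motif TGACGTCA, the PU.1 motif GAGGAAGT and the AP-1 motif TGANTCA. The first 4 are at the strongest promoter regions with a named gene, and the last 4 are at the cDC1 markers. The Pnrc1 region ends at base 33248889, so much of the Pnrc1 sequence shown lies upstream of it.
Pnrc1 (chr4:33248758-33249037, minus strand): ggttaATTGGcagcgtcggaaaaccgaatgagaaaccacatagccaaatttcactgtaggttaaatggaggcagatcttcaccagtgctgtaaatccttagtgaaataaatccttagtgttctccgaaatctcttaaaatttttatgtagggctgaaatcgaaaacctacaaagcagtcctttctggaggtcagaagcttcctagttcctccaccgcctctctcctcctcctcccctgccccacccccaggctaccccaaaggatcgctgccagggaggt
Dnpep (chr1:75317608-75317887, minus strand): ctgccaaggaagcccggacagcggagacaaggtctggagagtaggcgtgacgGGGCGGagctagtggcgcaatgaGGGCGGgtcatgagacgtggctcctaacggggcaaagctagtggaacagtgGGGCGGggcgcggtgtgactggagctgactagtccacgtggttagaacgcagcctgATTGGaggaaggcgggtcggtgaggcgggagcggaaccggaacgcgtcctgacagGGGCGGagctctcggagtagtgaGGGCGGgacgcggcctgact
Atp2b1 (chr10:98914392-98914671, plus strand): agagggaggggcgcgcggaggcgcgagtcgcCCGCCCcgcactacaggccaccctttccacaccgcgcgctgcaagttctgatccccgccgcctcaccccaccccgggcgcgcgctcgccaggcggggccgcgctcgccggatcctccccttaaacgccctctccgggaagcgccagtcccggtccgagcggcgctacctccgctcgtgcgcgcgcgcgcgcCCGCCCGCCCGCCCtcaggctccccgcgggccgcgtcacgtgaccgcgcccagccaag
Ube2d3 (chr3:135438230-135438509, plus strand): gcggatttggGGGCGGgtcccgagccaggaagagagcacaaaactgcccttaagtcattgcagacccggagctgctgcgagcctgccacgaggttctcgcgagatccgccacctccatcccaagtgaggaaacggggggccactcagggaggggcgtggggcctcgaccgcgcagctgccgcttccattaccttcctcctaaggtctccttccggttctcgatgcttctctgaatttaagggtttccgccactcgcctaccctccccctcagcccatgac
Irf8 (chr8:120736108-120736387, plus strand): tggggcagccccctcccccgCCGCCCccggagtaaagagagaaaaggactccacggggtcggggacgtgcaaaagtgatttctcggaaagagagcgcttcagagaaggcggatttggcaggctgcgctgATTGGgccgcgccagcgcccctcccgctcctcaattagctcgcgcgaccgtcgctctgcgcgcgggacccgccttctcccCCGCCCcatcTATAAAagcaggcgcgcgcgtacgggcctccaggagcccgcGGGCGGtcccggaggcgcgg
Batf3 (chr1:191098164-191098443, plus strand): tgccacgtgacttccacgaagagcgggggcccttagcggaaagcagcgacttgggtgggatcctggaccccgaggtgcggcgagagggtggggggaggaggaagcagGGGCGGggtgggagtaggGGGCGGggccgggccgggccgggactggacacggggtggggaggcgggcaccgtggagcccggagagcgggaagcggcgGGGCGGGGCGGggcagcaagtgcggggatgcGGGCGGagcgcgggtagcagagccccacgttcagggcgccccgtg
Clec9a (chr6:129408612-129408891, plus strand): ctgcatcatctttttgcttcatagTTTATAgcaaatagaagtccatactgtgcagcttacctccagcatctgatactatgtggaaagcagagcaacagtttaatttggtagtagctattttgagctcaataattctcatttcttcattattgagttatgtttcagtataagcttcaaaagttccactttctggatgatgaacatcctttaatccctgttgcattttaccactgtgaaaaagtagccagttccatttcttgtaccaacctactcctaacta
Xcr1 (chr9:123862000-123862279, minus strand): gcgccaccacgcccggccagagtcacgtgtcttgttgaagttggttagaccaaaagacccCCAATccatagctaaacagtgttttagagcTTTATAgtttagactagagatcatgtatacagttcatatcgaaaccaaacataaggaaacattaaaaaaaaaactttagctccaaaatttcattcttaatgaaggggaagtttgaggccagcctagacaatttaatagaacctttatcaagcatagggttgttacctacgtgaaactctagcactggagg

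The 300-base windows around the starts of Dnpep, Atp2b1 and Ube2d3 were 65.7%, 79.3% and 64.0% G or C, with 27, 54 and 22 CpG dinucleotides. Pnrc1 was the exception among the strongest, at 48.0% with 8 CpG. Irf8 and Batf3 also had CpG-rich windows, with 38 and 34 CpG, and 3 and 5 GC boxes in the sequence shown. The Clec9a and Xcr1 windows held 1 and 6 CpG and no GC box. A TATAAA on the strand of the gene was present at Irf8. At Clec9a and Xcr1 the match was on the other strand (TTTATA) and farther from the start. Neither the Clec9a nor the Xcr1 start lay in a region. Motif counts are for the sequence shown.

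Over all 21262 listed starts of protein-coding genes, unlike among the 8 shown, G or C content rose with level. Starts whose window overlapped one of the 500 strongest promoter regions (565 starts) had a median G or C content of 65.7%. It was 63.0% at the other promoter regions above the median level and 59.3% at those below it. Over all listed starts it was 56.3%, and over the 10600 starts whose window overlapped no region 50.0%. A GC box, to which SP1 and related factors bind, was present in 84.8% of the windows at the 500 strongest regions, 46.2% of all windows and 23.9% of windows outside regions. CCAAT, the NF-Y motif, was found in 56.5%, 38.2% and 37.8% of these windows. TATAAA went the other way, with 4.78%, 12.6% and 19.4%.

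The ETS motif was most frequent below the strongest regions. It was found in 4.96% of windows at the 500 strongest regions and in 11.1% of windows at the other promoter regions above the median level, against 5.15% of all windows. It was found in 6.51% of windows at promoter regions below the median and in 1.15% of windows without a region. The CRE motif was also most frequent in the second of these groups, at 4.33% against 2.65% at the strongest and 2.23% of all windows, and was found in 0.981% of windows without a region. PU.1 is an ETS factor of myeloid cells. Its motif GAGGAAGT was found in 4.07% of windows at the 500 strongest regions and 3.12% at the others above the median. It was found in 3.83% at promoter regions below the median, in 2.84% without a region and in 3.13% over all starts. The RUNX motif TGTGGT was found in 7.96%, 10.7% and 14.97% at the strongest regions, at the others above the median and over all starts. In the same order, the E-box CACGTG was found in 9.73%, 11.6% and 7.84%, and the AP-1 motif in 4.60%, 3.74% and 6.99%. Motifs overlap in sequence and share base composition with the windows, and a match is a description, not a bound site.

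Promoters made up most of the signal although not most of the regions. The 13566 promoter regions, 22.6% of all, held 55.8% ± 0.346 (SD, n = 4) of the counts. The 24662 regions inside genes held 23.1% ± 0.226 and the 21611 regions between genes held 20.7% ± 0.138. Median levels were 26.2 CPM at promoters, 5.44 inside genes and 5.45 between genes. Promoter regions were also wider, with a median of 505 bp against 298 and 297 bp. Level and width went together across all regions (Spearman's rho 0.853 over 59906 regions, as a description), so levels here are per region and not per length, and widths depend on how the regions were set.

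The strongest regions were almost all promoters. Promoters were 555 of the 599 strongest regions (92.7%), which together held 11.3% ± 0.347 of the counts, and 4720 of the 5990 strongest (78.8%), which held 50.2% ± 1.05. Among the weakest 11906 regions 6.42% were promoters. The spread between libraries narrowed with level, from a median coefficient of variation (CV) of 35.5% in the weakest regions to 5.10% in the 100 strongest. Counting error alone would give 27.1% and 2.62% if every count were independent. It would be larger if both ends of read pairs were counted, which is not given, so in weak regions the spread cannot be set against it.

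**Figure D1:**
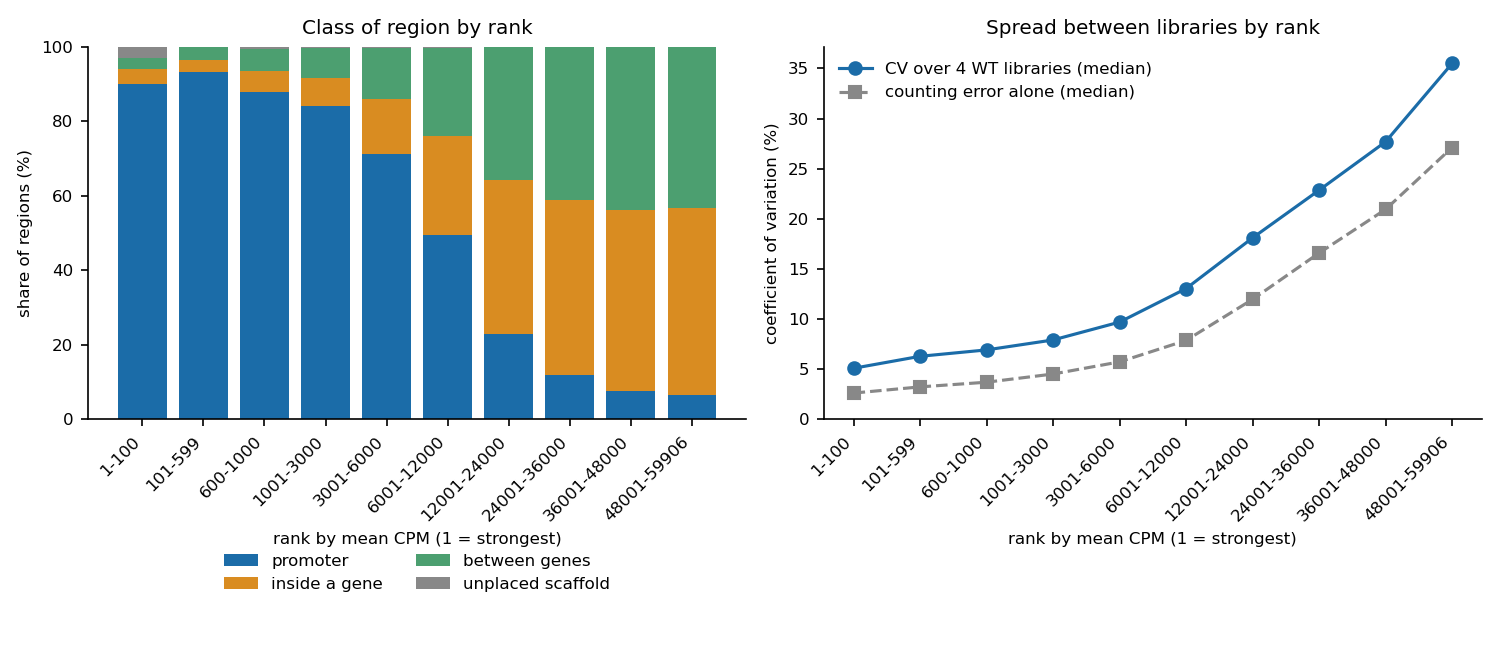
Left, the share of regions in each class (%, stacked bars) in bins of rank by mean CPM over the 4 WT libraries. Right, the median CV over the 4 libraries and the median CV that Poisson counting error gives, in the same bins; promoters fall from 90.0% of the 100 strongest regions to 6.42% of the weakest bin, and the counting error drawn takes every count as independent.

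The strongest promoter of a named gene was that of Pnrc1, a coactivator of nuclear receptors, at chr4:33247466-33248889. It had 339, 414, 391.8 and 390 CPM in WT libraries 1 to 4, a mean of 384 ± 31.7. Library 1 was the lowest there. Dnpep, an aspartyl aminopeptidase, followed with 349, 371, 344 and 357 CPM at chr1:75317260-75318141, which overlaps the values of Pnrc1. Next were Atp2b1, a plasma membrane calcium pump (347 ± 21.8), Ube2d3, a ubiquitin-conjugating enzyme (345 ± 28.2), and Ifrd1, an interferon-related regulator (345 ± 9.77). Adjacent members of this order differed by less than their spread.

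The 20 strongest promoter regions ran from 529 to 299 CPM and the next 3, Sf1, Ypel5 and Rab40c, had 295, 289 and 287 CPM. They included the transcription factors Sp1 (330 ± 21.2), Cic (324 ± 20.8), Gpbp1 (321 ± 30.7) and Camta1 (316 ± 10.0). The ubiquitin ligases Pja2 (337 ± 11.8) and Mex3c (301 ± 12.3), the small GTPases Rap2a (330 ± 16.6) and Rab8a (299 ± 27.7), and the kinase Gsk3b (299 ± 18.1) were also among them. Opa3 (311 ± 24.9) and Mpc2, which shares a region with Dcaf6 (319 ± 13.8), encode mitochondrial proteins. The shared regions of Hdgfl2 and Ubxn6 (313 ± 8.96) and of Khsrp and Slc25a41 (304 ± 10.2) also served 2 genes each. Of these genes, Crlf2 (305 ± 12.4), a chain of the receptor for the cytokine TSLP, is the one best known from immune cells.

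The highest promoter value, 529 ± 33.7 CPM, belonged to LOC108167694, a predicted gene close to the end of chromosome 9. Its region, at chr9:124422813-124425999, was the widest of all at 3186 bp. The strongest region of the whole table was not on a chromosome: a region of the unplaced scaffold JH584304.1 had 1201, 928, 1082 and 896 CPM. Regions on GL456216.1 (366 ± 18.2) and again on JH584304.1 (327 ± 33.8) ranked 5 and 14. The 67 regions on unplaced scaffolds held 0.351% of the counts in all. How reads that match several copies were counted was not given in the sources used here, so these values are uncertain.

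Per kb of width the order changed. Pja2 then led with 465 CPM per kb, followed by Ypel5 with 409 and Dnpep with 403. Of the 20 regions with the highest CPM per kb, 16 were promoters. They were chosen after their values were seen, and some regions are only a few bases wide: the fourth, 27.4 kb from Chsy1, was 2 bp wide with 0.803 CPM.

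Away from promoters the strongest regions were led by a few that sit near other annotated ends. Inside genes the highest was in Zbtb20, a zinc finger repressor, at chr16:42874959-42876337, with 433, 380, 442 and 409 CPM (416 ± 28.0). It ranked 3 in the table and lay within 1 kb of an end of the Zbtb20 model that was not among the listed starts. Of the 15 strongest regions inside genes, 7 lay within 1 kb of an end of a protein-coding or long non-coding RNA (lncRNA) model. Among all 24662 regions inside genes 6.63% did. Such a region can be the promoter of a start that was not listed, or lie at the 3′ end of a gene.

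Those away from any such end were in Impact (290 ± 5.71), Pcmtd1 (267 ± 9.53), Ssc4d (215 ± 19.5), Mnt (195 ± 25.8), Cpeb2 (186 ± 6.69), Kdm6b (169 ± 32.9), Nfkbiz (160 ± 12.3) and Zfp446 (157 ± 7.63). Nfkbiz encodes an inducible nuclear regulator of NF-kappaB target genes. Kdm6b encodes a histone H3 lysine demethylase, and its region varied most of these, with 140, 215, 151 and 168 CPM. Near model or lncRNA ends stood a region assigned to Setd5 that also lies at Gt(ROSA)26Sor, the Rosa26 locus (261 ± 22.8), Klf10 (222 ± 19.6), Per1 (218 ± 23.2), Stard13 (176 ± 7.31), Banp (162 ± 12.8) and Il1b (166 ± 44.3).

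Between genes the highest level was 44.7 kb from Zfp958, at chr8:4677270-4678889, with 349, 360, 341 and 369 CPM (355 ± 12.5). No other region between genes came near it. The next was near Tlcd2 (242 ± 32.6), at an end of the lncRNA Mir22hg, the host of a microRNA. Of the 15 strongest, 7 lay at lncRNA ends, among them those near Prss12 at the end of Snhg8 (175 ± 7.18) and near Chd2 at the end of Chaserr (174 ± 9.85). Over all 21611 regions between genes 9.14% lay at such ends.

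Of the 15, 8 had no end of a protein-coding or lncRNA model within 1 kb, with Zfp958 the first. A region 1.37 kb from Nr4a3, an orphan nuclear receptor induced by activation, had 226 ± 16.6 CPM. One 18.2 kb from Fos, a subunit of AP-1, had 140, 179, 146 and 180 CPM (161 ± 21.2). Others were near Kifbp (197 ± 17.8), Zswim4 (193 ± 25.5) and Slc2a3, a glucose transporter (191 ± 5.77). Of all 15, whether at such an end or not, 5 lay over 50 kb from the nearest protein-coding gene. The farthest, at an end of the lncRNA Gm26901, was 224 kb from Pcmtd1 (194 ± 16.0). A region at an end of the lncRNA Gm32287, 84.5 kb from Cebpb, a transcription factor of myeloid cells, had 118, 197, 138 and 175 CPM, with library 1 the lowest and library 2 the highest. Regions near Cct8l1 (223 ± 11.7) and Wnt7b (189 ± 5.06) also lay at lncRNA ends, and those near Zfat (156 ± 8.08) and, a second time, Chd2 (155 ± 8.04) did not. The nearest gene need not be the one that a region acts on.

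**Figure D2:**
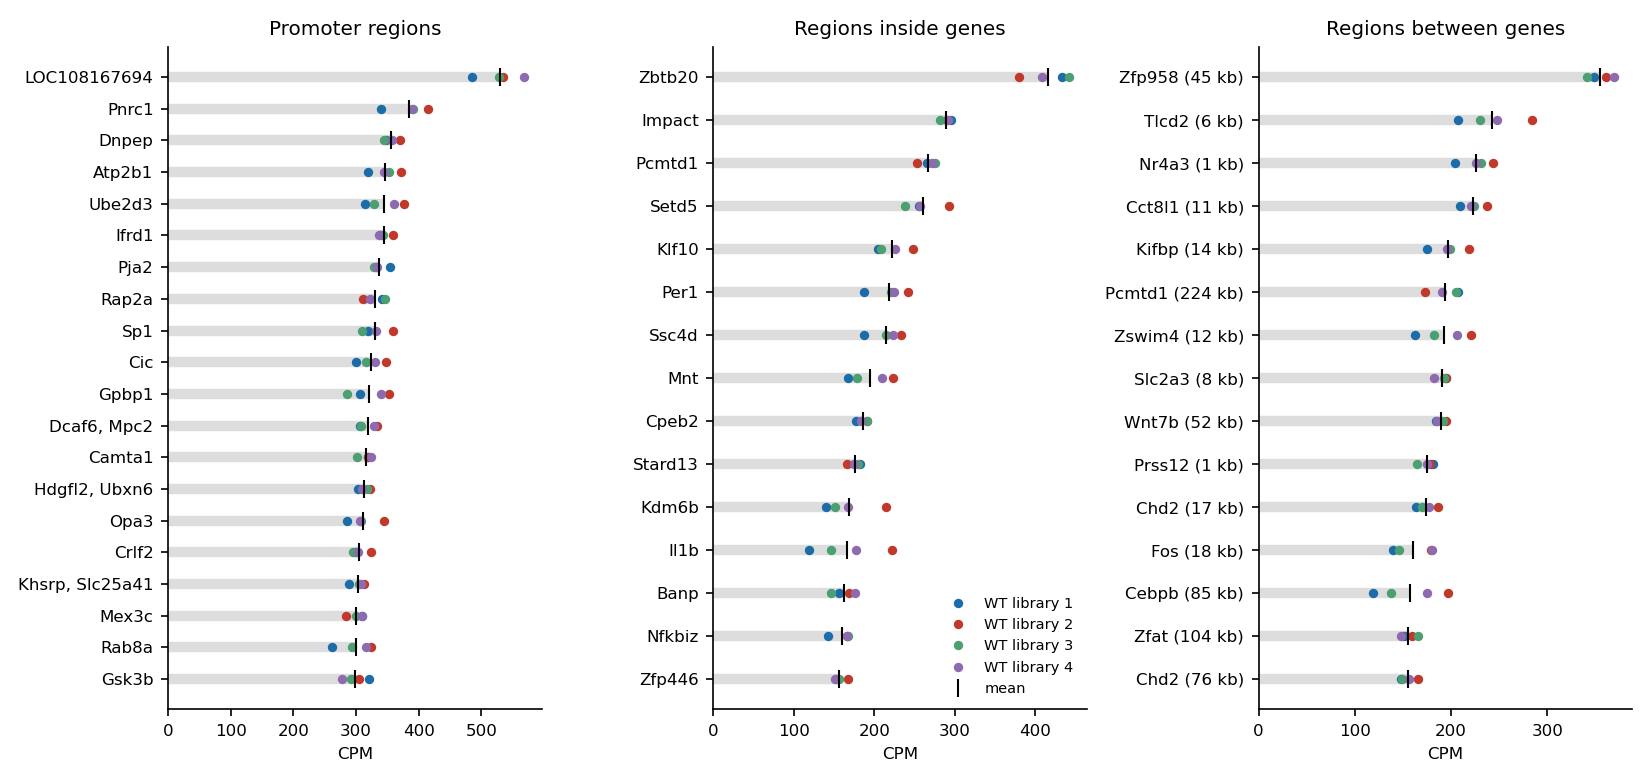
CPM in each WT library (coloured points), with the mean (black tick) and a grey bar from 0 to the mean, for the 20 strongest promoter regions, the 15 strongest inside genes and the 15 strongest between genes, named by promoter or nearest gene with the distance in kb. The LOC108167694, Zbtb20 and Zfp958 regions lead their classes, and the Il1b, Kdm6b and Cebpb regions have the largest CVs of those shown, with library 2 the highest in each.

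Counting regions rather than their level gave a different set of genes. Foxp1, a forkhead transcription factor, had the most regions within 50 kb, 65, of which 61 lay inside its 597 kb model. None of them was strong: the highest had 37.2 CPM and the median 5.46, but together they held 489, 500, 523 and 481 CPM in the 4 libraries. Pde4d, a cAMP phosphodiesterase, followed with 47 regions over 1302 kb. Itpr1, the receptor that releases calcium in response to inositol trisphosphate, had 43, and Etv6, an ETS repressor, had 42.

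The other genes among the 12 with most regions were Akap13 and Asap1 with 41 each, Sgms1 with 39, Lpp with 37, Dock10 with 36, Tns3 with 35, and Cmip and Gse1 with 34 each. The shortest of the 12 models was that of Cmip, at 204 kb, and the number of regions rose with the length of the gene (Spearman's rho 0.433 over 14994 genes, as a description). The median gene with any region had 2, and 20 genes had 30 or more.

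Set against length, other genes stood at the top. Irf2bp2, a corepressor that binds IRF2, had 20 regions around a 5.69 kb model, or 18.9 per 100 kb of the model with its 50 kb flanks. Fos had 17.4, Ier5, another immediate-early gene, 16.5, and the tetraspanin gene Cd9 14.9. The median was 5.83 over the 1628 genes with 8 or more regions. N4bp1 (14.6), Atp6v1g3 (13.8), Zfp36l2 (13.5), the chemokine receptor Cxcr4 (13.4), the sphingosine phosphate receptor S1pr1 (13.4), Ly6e (13.3), Irf8 (13.3) and Il1b (13.1) completed the 12. By this count, regions in a large space without genes fall to the nearest gene within 50 kb.

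Of the 5 genes with the highest summed level, only Cmip was among those with most regions. Zswim4 had the highest sum within 50 kb (692 ± 108 CPM over 12 regions), followed by Itpkb (680 ± 65.5 over 24), Cmip (660 ± 79.4 over 34), Dusp1 (622 ± 107 over 10) and Entpd1 (613 ± 113 over 21). Itpkb encodes an inositol trisphosphate kinase, Dusp1 an inducible phosphatase of MAP kinases and Entpd1 the ectonucleotidase CD39. These 5 were named after their sums were seen. At each of them library 1 was the lowest and library 2 the highest.

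Among windows of 100 kb, the densest held 27 regions on chromosome 17 (chr17:35160001-35260000), around Tnf, Lta and Ltb in the MHC. Another on the same chromosome, at Zfp36l2, held 26 (chr17:84090001-84190000). A window with no protein-coding gene also held 26 (chr2:128370001-128470000), and another such window held 25, with 735 ± 109 CPM in sum (chr8:126790001-126890000). The fifth window, with 24 regions, held Il10 and Mapkapk2 on chromosome 1. Windows at Ier5, at the MHC class II genes H2-Ob to H2-Eb2, and at Vasp and Fosb also had 24.

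**Figure D3:**
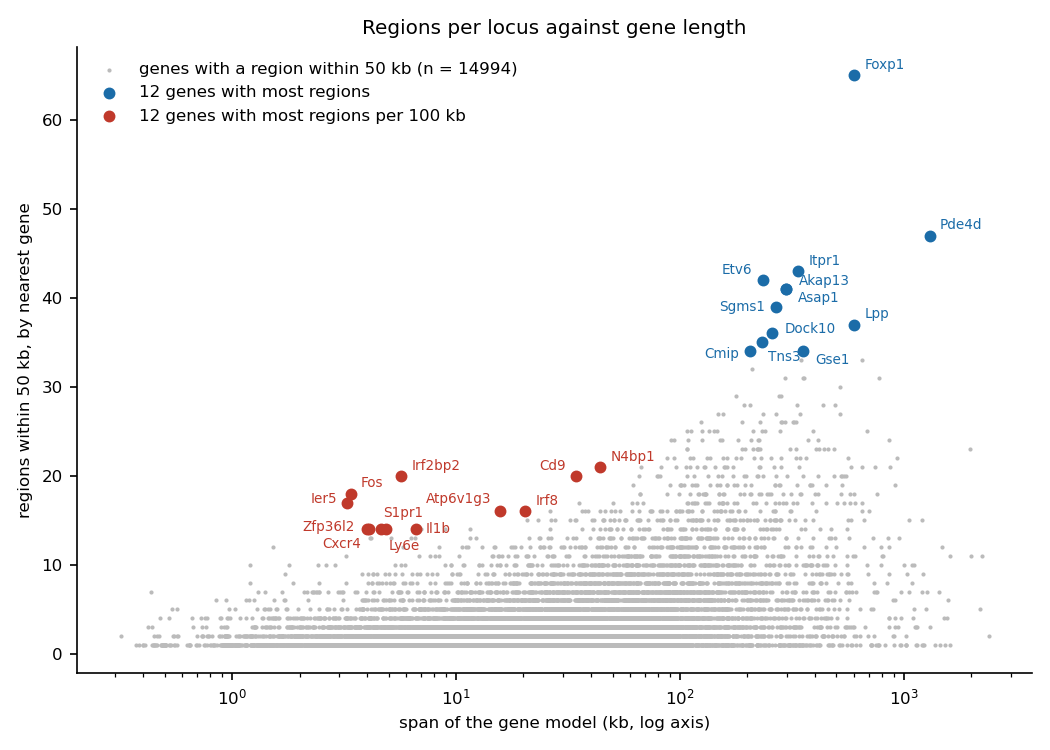
Number of regions within 50 kb (assigned to the nearest protein-coding gene) against the span of the gene model in kb on a log axis, for 14994 genes; coloured points are the 12 genes with most regions and the 12 with most per 100 kb among genes with 8 or more. Foxp1 stands apart at 65 regions, and Fos, Ier5 and Irf2bp2 hold 17 to 20 around models of 5.69 kb or less.

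Of the 4 markers, Irf8 and Batf3 had a promoter region and Xcr1 and Clec9a had none. The Irf8 promoter (chr8:120735970-120736703) had 39.4, 27.3, 39.7 and 33.8 CPM, a mean of 35.04 ± 5.83. The strongest of its other 15 regions lay 32.4 kb downstream of the start (chr8:120768480-120768986), with 31.7, 23.0, 24.7 and 21.8 CPM (25.3 ± 4.46). An enhancer downstream of Irf8 that binds BATF3 is known to keep Irf8 on in cDC1. Library 2 was the lowest of the 4 at the promoter, and the promoter was the higher of the 2 regions in each of the 4 libraries. Per kb of width the means were 47.8 CPM at the promoter and 50.0 CPM at the downstream region.

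No other region at Irf8 came close. The remaining 14 had between 1.92 and 6.99 CPM, including regions 41.0 and 56.5 kb downstream (5.49 ± 1.44 and 3.83 ± 0.900). At Batf3 the promoter (chr1:191098197-191098572) had 17.1, 16.4, 13.3 and 12.9 CPM (14.9 ± 2.13). Downstream of the gene, a region 27.6 kb from the start had 16.2, 22.3, 20.4 and 21.4 CPM (20.1 ± 2.70), and a region 13.0 kb from it had 16.6 ± 1.25. These 3 regions overlapped in their values, at 39.8, 37.2 and 31.1 CPM per kb. The other 5 Batf3 regions had 3.21 to 9.36 CPM.

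Clec9a had 3 regions, all within its 3′ part, with 9.80 ± 1.53, 7.32 ± 1.20 and 3.46 ± 1.20 CPM at 15.01, 15.6 and 12.6 kb from the listed start. No region lay within the Xcr1 model or within 1 kb of its start (chr9:123862029). Within 50 kb of that start were 5 regions, all downstream and all nearest to the adjacent gene Fyco1. The strongest, 21.6 kb away, had 21.6, 26.0, 19.95 and 14.9 CPM (20.6 ± 4.59). The cDC1 label could thus be set against promoters at 2 of its 4 markers. A gene without a region in this table need not have closed chromatin: Actg1 and Eef2, which nearly all cells use, had none within 50 kb assigned to them either.

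The wider cDC1 list held 27 genes, including the 4 markers. Of these, 23 had a promoter region (85.2%, against 55.7% of all 21883 genes) and 10 had one at or above the median promoter of 26.2 CPM (37.0% against 33.8%). The highest were Id2 (85.2 ± 2.37), which antagonises E proteins and is needed for cDC1, Nfil3 (82.2 ± 8.86), a transcription factor upstream of Id2, and Wdfy4 (64.6 ± 9.91), which is needed for cross-presentation. The lowest was Gcsam (2.46 ± 1.03). Itgae and Zbtb46 had none, beside Clec9a and Xcr1. The promoter regions of Cadm1, Cd24a and Plpp1, all above the median, were set by a model end and not by a listed start.

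By number of regions the shares lay farther apart than by promoter level. Of the 27 genes, 12 had 8 or more regions within 50 kb (44.4% against 7.44% of all genes). Cadm1 had 17, Irf8 16, Flt3, the receptor of a dendritic cell growth factor, 14, and the repressor gene Bcl6 13, named after the counts were seen. None of the 27 promoters was among the 1000 strongest regions, against 4.83% of all genes. In a list of 27 these shares are not far apart.

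Transcription factors of dendritic cells had the largest shares of the lists for 8 or more regions. Of 30, 26 had a promoter region (86.7%, against 55.7% of all genes), 20 of them (66.7%, against 33.8%) at or above the median. Of the 30, 17 (56.7%, against 7.44%) had 8 or more regions. Stat3 (198 ± 18.6), Jun (185 ± 14.97) and Rel (183 ± 16.4) were the highest and Gfi1 (5.93 ± 1.76) the lowest. Ets1, Fli1, Zfp366 and Bach2 had no promoter region at the starts or ends used, though they held 18, 15, 12 and 33 regions.

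Every gene of the MHC class I and class II lists had a promoter region, as did all 16 RNA processing genes, against 55.7% of all genes. All 17 genes of MHC class I presentation had one, 11 of them (64.7%, against 33.8% of all genes) at or above the median. Psme2, of the proteasome activator and sharing its region with Rnf31, had 172 ± 15.6 CPM, the class I heavy chain H2-D1 154 ± 16.3 and the chaperone Calr 135 ± 5.06. Psmb10, an immunoproteasome subunit, was the lowest (6.92 ± 1.37). All 16 genes of MHC class II presentation had one too, 8 of them (50.0%) at or above the median, led by the regulators Rfx5 (108 ± 6.92) and Rfxank (87.1 ± 7.23) and by the invariant chain gene Cd74 (68.9 ± 4.53). The protease gene Ctss was the lowest (7.78 ± 1.85).

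Of 16 genes of cross-presentation and endosomes, 15 had a promoter region (93.8%, against 55.7% of all genes) and 9 (56.2%, against 33.8%) reached the median. Lnpep, the endosomal peptidase IRAP, led with 219 ± 13.9 CPM, followed by Rab32 (92.4 ± 4.70) and Rab43 (77.7 ± 6.66). Cybb, the catalytic subunit of the phagocyte oxidase, had the lowest (5.46 ± 0.526) and Pik3c3 had none. Of 20 costimulation and maturation genes, 16 had a promoter region (80%, against 55.7% of all genes) and 6 (30.0%, against 33.8%) reached the median. Relb (224 ± 7.41), Socs1 (82.1 ± 5.72) and Marcksl1 (39.7 ± 3.77) led this list, and Cd70 (1.07 ± 0.503) was the lowest. Pdcd1lg2, Tnfsf4, Ccl17 and Lamp3 had no promoter region, although 19 regions were assigned to Pdcd1lg2.

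Of 18 cytokine and chemokine genes, 17 had a promoter region (94.4%, against 55.7% of all genes) and 9 (50.0%, against 33.8%) reached the median. Tgfb1 was the highest (55.7 ± 3.83), followed by Il1b (31.9 ± 7.70) and the region shared by Ccl3 and Ccl4 (31.3 ± 2.52). Il12a, a subunit of IL-12, was the lowest (3.49 ± 1.16), and Ifnb1 had none. Of 18 chemokine and growth factor receptors, 14 had a promoter region (77.8%, against 55.7% of all genes). The median was reached by 5 (27.8%, against 33.8%), led by Ifngr1 (155 ± 5.85), Tgfbr1 (150 ± 6.18) and Ifnar1 (136 ± 12.2). Cxcr3 was the lowest (4.92 ± 0.621), and Xcr1, Ccr2, S1pr4 and Csf2ra had none. Of these 18 receptors, 8 (44.4%, against 7.44% of all genes) had 8 or more regions.

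Genes used by all cells gave a scale for these levels. Of 16 RNA processing genes, 15 (93.8%, against 33.8% of all genes) reached the median, led by Ddx5 (189 ± 21.7), Hnrnpa1 (176 ± 7.90) and Polr2a (162 ± 19.2). Among the 1000 strongest regions were 6 of the 16 (37.5%, against 4.83% of all genes). The lowest was Snrpb (16.2 ± 1.22). Of 22 ribosomal protein and elongation factor genes, 19 (86.4%) reached the median, led by Rps19 (170 ± 7.75) and Rpl13a (141 ± 15.8), with Rpl4 the lowest (15.8 ± 2.89). No gene of either list had 8 or more regions, against 7.44% of all genes. Of 18 actin and adhesion genes 10 (55.6%) reached the median and 8 (44.4%) had 8 or more regions, the same share as in the cDC1 list. Itga4 (141 ± 7.81), Arpc2 (72.8 ± 3.34) and Wasf2 (53.1 ± 5.73) led the actin and adhesion list. Itgb7 was the lowest (7.34 ± 1.74), and Actb and Actg1 had no promoter region by the starts and ends used. A region inside the Actb model, away from its ends, had 150 ± 14.98 CPM, and was not counted as a promoter.

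Few lymphocyte markers had a strong promoter region. No B cell marker (of 14) and no NK cell marker (of 10) reached the median promoter, against 33.8% of all genes. Of 14 T cell markers 1 (7.14%) did, Cd5 with 33.2 ± 3.57 CPM. Any promoter region was present for 57.1% of B cell, 50% of T cell and 40% of NK cell markers, against 55.7% of all genes. No promoter region was found for 6 B cell, 7 T cell and 6 NK cell markers, among them Cd79b, Pax5, Cd3e, Cd3g and Ncr1. The highest B cell values were at Bank1 (23.0 ± 4.16), Cr2 (10.6 ± 2.07) and Pou2af1 (8.55 ± 0.441), and the lowest at Cd79a (2.62 ± 0.761). Of the T cell list, Cd2 (8.47 ± 1.39) and Tcf7 (4.93 ± 0.702) followed Cd5, and Lef1 was the lowest (2.44 ± 0.681). The 4 NK promoters were Klrk1 (4.78 ± 0.761), Prf1 (4.35 ± 1.34), Eomes (2.92 ± 1.39) and Gzmb (1.503 ± 0.534). In bulk libraries, few cells with an accessible promoter and low access in every cell cannot be told apart.

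Lists of other myeloid and dendritic cells were not clearly apart from the cDC1 list. Any promoter region was present for 83.3% of cDC2 markers and 85% of monocyte and macrophage markers, against 85.2% for cDC1. For plasmacytoid dendritic cells it was 50%, against 55.7% of all genes. Median levels of these 3 lists were 19.4, 7.79 and 26.9 CPM, against 22.1 CPM for cDC1. Shares at or above the median promoter lay below the 33.8% of all genes, though 27.8% and 28.6% in lists of 18 and 14 are not far from it. Of 18 cDC2 markers, 15 had a promoter region and 5 (27.8%) reached the median promoter. This list was led by Relb, Klf4 (93.9 ± 8.65) and Notch2 (63.5 ± 3.48). Cd209a was the lowest (2.71 ± 1.02), and Mgl2, Clec10a and Ccr2 had none. Of 20 monocyte and macrophage markers 4 reached it, led by Cd68 (94.4 ± 7.84) and Cd14 (60.0 ± 9.55), and C1qa was the lowest (3.06 ± 0.898). Marco, Timd4 and Cd163 had none. Of 14 plasmacytoid dendritic cell markers 4 reached it, led by Tcf4 (53.3 ± 2.18), Irf7 (30.9 ± 2.97) and Tlr9 (30.8 ± 2.74). Tlr7 was the lowest (3.63 ± 0.563), and Ly6d, Ccr9, Spib, Runx2, Cox6a2, Pacsin1 and Lefty1 had none at the starts and ends used. Some of these genes are also used by cDC1.

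Of 14 neutrophil markers 10 had a promoter region (71.4%, against 55.7% of all genes). Only S100a9 reached the median (7.14% of the list, against 33.8% of all genes). It had 33.6 ± 11.5 CPM, followed by S100a8 (12.9 ± 2.74) and Cxcr2 (10.4 ± 1.88). Camp was the lowest (1.17 ± 0.683), and Ly6g, Elane, Mpo and Ngp had none. Of 12 red cell markers 7 had a promoter region (58.3%). Only Tfrc, the transferrin receptor of dividing cells, reached the median (8.33% of the list). It had 51.6 ± 3.09 CPM, followed by Tal1 (15.2 ± 1.79) and Epor (7.39 ± 0.722). Gata1, Klf1, Hba-a1, Alas2 and Ermap had none. Of 12 stroma and endothelium markers 3 had a promoter region (25.0%, against 55.7% of all genes), Col1a1 (8.10 ± 3.04), Madcam1 (7.25 ± 1.14) and Kdr (3.66 ± 1.78). The others, among them Pecam1 and Cdh5, had none. Of 14 genes used outside blood 2 had one (14.3%), the region shared by Bmp1 and Sftpc (11.7 ± 3.76) and Myod1 (2.47 ± 1.38). The other 12, including Alb, Ins2 and Krt14, had none.

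**Figure D4:**
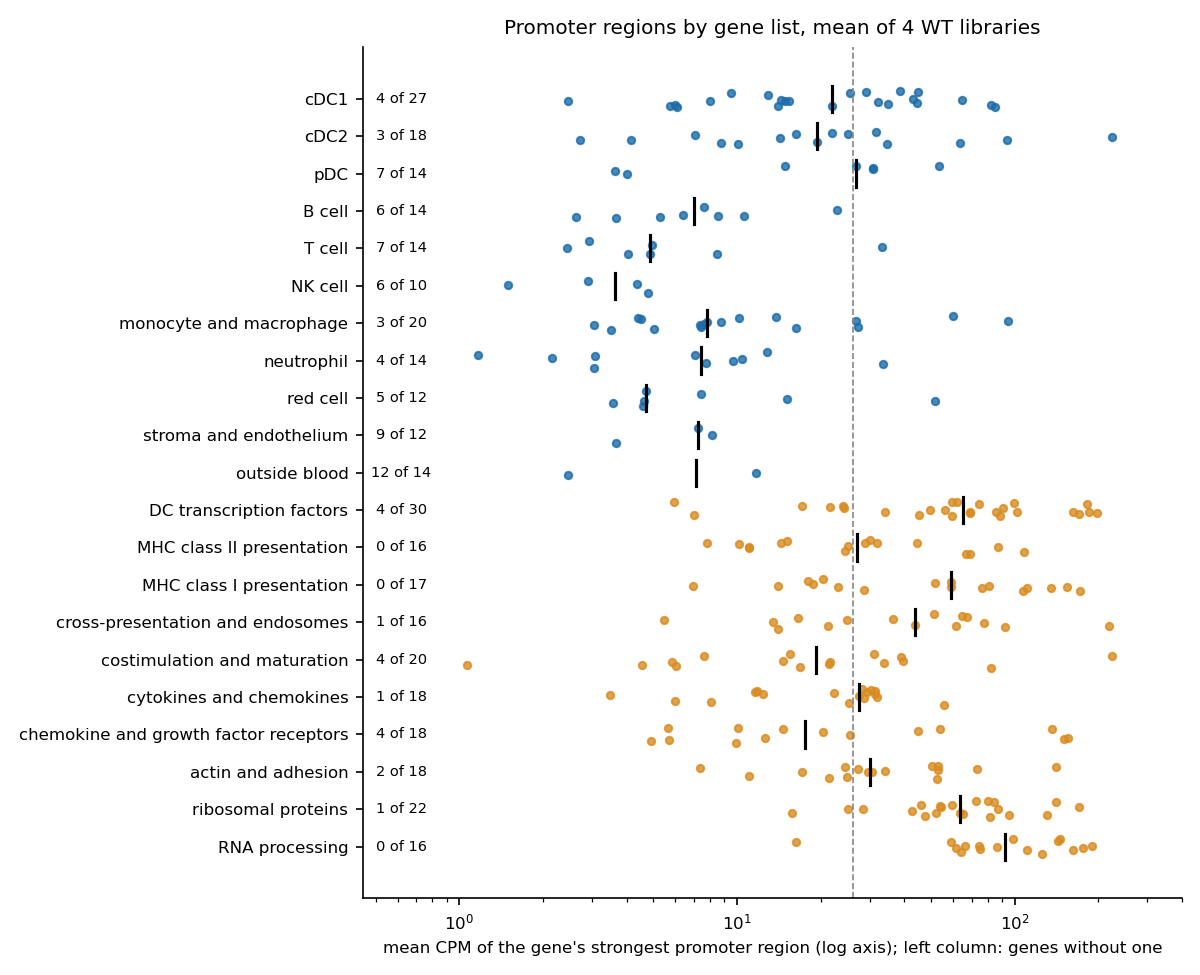
Mean CPM over the 4 WT libraries of each gene's strongest promoter region, on a log axis, by gene list (blue, cell type markers; orange, functions); black bars are medians of the genes shown, the numbers at the left count genes with no promoter region, and the dashed line is the median promoter at 26.2 CPM. RNA processing and ribosomal genes lie mostly above the line, cDC1 markers on both sides of it, and B, T and NK cell markers almost all below it.

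The strong regions that varied most between the 4 libraries shared a pattern. Among the 1000 strongest, the largest CVs were at Il1b (26.6%), near Dnah17 (24.0%), 120 kb from Cxcr4 (23.4%), in Entpd1 (22.7%) and 84.5 kb from Cebpb (22.5%). None of these 5 was a promoter region by the listed starts, though the one at Il1b covers the 3′ end of the gene. Il1b had 119, 222, 147 and 177 CPM, Entpd1 87.8, 155, 121 and 132, and the Cxcr4 region 113, 194, 132 and 149. In each, library 1 was the lowest and library 2 the highest. The 5 steadiest were all promoters, led by Arrdc2 with 174, 171, 173 and 172 CPM (CV 0.602%), followed by the region of Cnst and Tfb2m (0.918%), Pkn2 (1.18%) and, as the fifth, Zbtb21 (1.28%).

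The pattern extended to the 100 most variable of these 1000 regions, which were picked by their CV, so no test was made. Of them 65 were promoters, against 843 of the other 900. Library 2 was the highest and library 1 the lowest at 63 of the 100, and at 238 of the other 900. Over all regions of at least 20 CPM, the median ratio of library 2 to library 1 was 0.976 at promoters, 1.17 inside genes and 1.16 between genes. These libraries had the largest totals, 6426149 counts in library 1 and 6777651 in library 2.

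List sums moved with this pattern in part, for markers and for functions. The summed promoter CPM of the 10 neutrophil markers with a region was 69.9, 106, 83.9 and 104 in libraries 1 to 4, highest in library 2. Much of that was S100a9, with 19.6, 45.4, 29.2 and 40.001 CPM. S100a8 had 10.3, 15.05, 10.7 and 15.4 CPM and Cxcr2 8.71, 12.7, 9.01 and 11.2, also lowest in library 1. Ly6g, Elane, Mpo and Ngp had no promoter region, which does not show closed chromatin. The monocyte and macrophage sum was 278, 320, 309 and 326, the B cell sum 75.3, 56.7, 76.8 and 62.1 and the NK cell sum 17.1, 10.3, 14.4 and 12.4. The cDC1 sum was 666, 657, 650 and 652 (SD 7.55), and the cDC2 sum was as steady, at 576, 587, 570 and 577 (SD 7.02). The T cell sum was 56.8, 60.9, 62.9 and 62.8. The plasmacytoid dendritic cell sum was 173, 149, 167 and 169. Lists of functions also differed between libraries. The actin and adhesion sum was 599, 712, 649 and 643, and the RNA processing sum 1565, 1767, 1575 and 1703. The MHC class I sum was 1014, 1147, 1033 and 1109, and the MHC class II sum 592, 581, 597 and 573. The part of these lists in the spread between libraries was not tested.

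**Figure D5:**
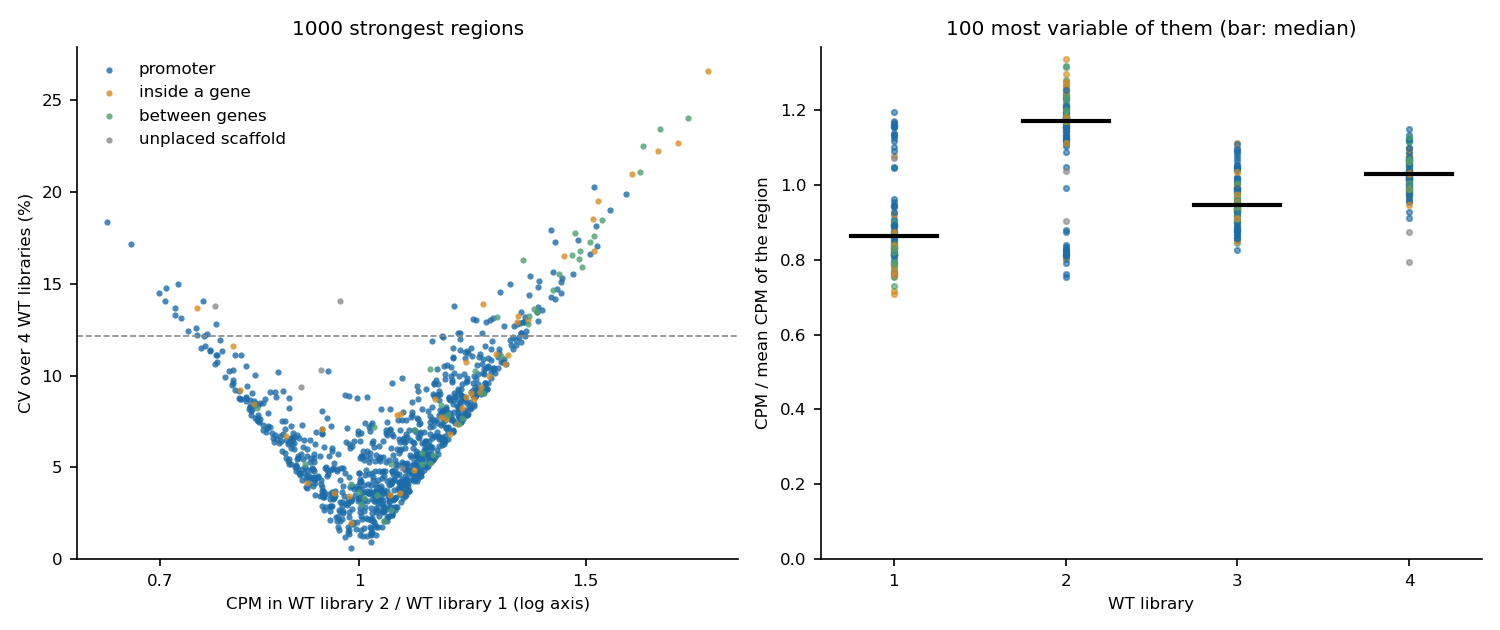
Left, the CV over the 4 WT libraries (%) against the ratio of CPM in library 2 to library 1 (log axis) for the 1000 strongest regions by class, with the dashed line at the lowest CV of the 100 most variable. Right, CPM of those 100 in each library divided by the region's mean, with the median as a bar; the medians are lowest in library 1 and highest in library 2.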

How the data were processed

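ATAC-seq was made from sorted splenic cDC1. The deposited table gives raw counts per region for 8 libraries, per the file headers, of which the 4 WT columns were used. The submitters' processing notes name the peak caller MACS2 2.1.0.20150603, the adapter trimmer cutadapt 1.9, bedtools, SAMtools and Picard 1.65, and the build mm10 (GRCm38). The aligner, each tool's role, any transposase shift and any blacklist are not given in the sources used here. Even numbers made up 56.4% to 59.9% of the values of a library, and whether both ends of a pair were counted is not given. Peak widths and the shared set of regions, made with both genotypes, limit what can be ranked.

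Counts were divided by the library total (CPM) and averaged. Coordinates are those of the table, whose first base (0 or 1) is not stated, and genes and promoter sequences are from RefSeq GRCm38.p6. A promoter region lies within 1 kb of a listed start, or of either model end for the 4392 of 21883 genes without one. Other regions went to the nearest protein-coding gene. Python 3.11.15 with pandas 2.3.3 was used, and R 4.3.3 with edgeR 4.0.16 and DESeq2 1.42.0 for alternative scalings and the low-count filter. The ranking and assignment code was checked on simulated data with clearly raised regions and genes far apart. Close ranks and overlapping gene models were not covered. No test between groups was made.

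Genes were named by rule: the 4 markers; the 20 promoter, 15 inside-gene and 15 between-gene regions of highest mean CPM on placed chromosomes; the 12 genes with most regions within 50 kb and the 12 with most per 100 kb among genes with 8 or more; up to 5 densest windows of 100 kb; per list the 3 highest promoters, the lowest and genes without one; and the 5 highest and 5 lowest CVs among the 1000 strongest regions. The members and lists were chosen with earlier results of these data known. A few genes that this rule names are not reported here.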

Additional observations from a re-analysis of the deposited data

Results flagged for a closer look

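Of 147 groups of 4 library values examined for a library far from the others, 2 were flagged (1.36%); chance flags about 1 in 20. The strong region inside Nfkbiz had 142 CPM in WT library 1, the lowest, against 166 to 168 CPM in the other libraries. The between-gene region near Slc2a3 had 182 CPM in WT library 4, the lowest, against 193 to 195 CPM in the others.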

How the results depend on the processing

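Leaving out each WT library in turn gave 55.7% to 55.9% of counts at promoters and 11.2% to 11.4% in the strongest 1% of regions. The same 4 settings kept 18 to 20 of the 20 promoters, 14 to 15 of the 15 regions inside genes and 14 to 15 of those between genes, and put 10 to 11 cDC1 markers at or above the median promoter. The 65 regions at Foxp1 do not depend on the libraries. TMM factors, DESeq2 size factors and the median over libraries kept all 20, 15 and 15 regions. Ranking by CPM per kb kept 4 of the 20 promoters, 6 of the 15 inside genes and 6 of the 15 between genes, and the strongest 1% then held 10.3% of counts. The promoter share was 53.3% with a window of 0.5 kb and 59.6% with 2.5 kb. Each of these windows kept 10 of the 15 regions inside genes, and they put 9 and 12 cDC1 markers at or above the median promoter. With the low-count filter of edgeR the promoter share was 56.6% and the strongest 1% of the fewer regions held 10.5%. Counting all ends of protein-coding and lncRNA models as promoters, an alternative chosen after seeing the data, gave a promoter share of 61.4% and kept 8 of the 15 regions inside genes and 8 of the 15 between genes. Foxp1 remained the gene with most regions, with 57 to 67, under the other rules of assignment and the filter. No paired analysis was possible because only 1 group was described and no result came from a test. At a median count of 32 to 45 per region, counting error limits the order of weak regions.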

Other observations

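Chromosome X held 1013 regions, with a median promoter level of 18.7 CPM, against 21.8 to 31.3 CPM on the autosomes, and chromosome Y held 3 regions, all promoters. The 100 kb window with Vasp, Fosb and Ercc1 (chr7:19260001-19360000) had the highest sum of the 8 densest windows, 766 ± 64.0 CPM (SD, n = 4) over 24 regions, 6 of them promoters. In the window of H2-Ob, H2-Ab1, H2-Aa, H2-Eb1 and H2-Eb2, genes of MHC class II molecules, the 4 library sums were 527, 553, 534 and 519 CPM, a smaller spread (SD 14.5) than in the window without genes on chromosome 8 (615, 871, 690 and 763 CPM, SD 109).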
